A study of Mus musculus with 3 samples.

Results

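The Arid1a homozygous knockout clone was compared with the wild-type clone by the H3K27ac peaks called in each. The peaks of both libraries were merged where they touched or overlapped, which gave 48934 regions. A region was called gained where only the homozygous library had a peak and the wild-type library had none within 1 kb, and lost in the reverse case. By this rule 6729 of the 48934 regions were gained, 13295 were lost and 24427 were shared. A further 4483 regions were held by 1 library but lay within 1 kb of a peak of the other, and these were counted as neither gained nor lost.

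The cells were MIN6, a mouse insulinoma line used as a model of the pancreatic beta cell. Per the labels, stable Cas9 cells were infected with a lentivirus carrying 1 guide RNA against Arid1a and grown out as single clones. PCR genotyping and Western blotting for ARID1A then sorted the clones into wild type, heterozygous knockout and homozygous knockout. The wild-type clone thus came from the same blasticidin and puromycin selections as the knockouts. Each genotype is 1 clone with 1 library, so the comparison sets 1 clone against another and carries no test. The peaks of the wild-type list carry the tag GAL4 in their names, and the sources used here do not explain it.

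H3K27ac marks active promoters and active enhancers, where the acetyltransferases p300 and CBP place it on nucleosomes. ARID1A is a DNA-binding subunit of the canonical BAF form of the SWI/SNF complex, which slides and evicts nucleosomes and is found mostly at enhancers. In beta cells, distal enhancers bound by factors such as PDX1, NKX6-1 and NEUROD1 sit near the genes for insulin, for the secretory granule and for glucose sensing.

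The promoter sequences of 6 genes show the kinds of transcription start that the comparison separated. Each is the 300-base window from 250 bases before to 50 bases after a listed start, from RefSeq on GRCm38.p6, read 5′ to 3′ on the strand of the gene, with every CpG in capitals. The starts of Bcl2l14, a BCL-2 family gene, at chr6:134414178-134414477 (plus strand) and of Rnf186, a RING-type ubiquitin ligase gene, at chr4:138966869-138967168 (plus strand) had a homozygous peak only. The starts of Dennd2a, a Rab exchange factor gene, at chr6:39557785-39558084 (minus strand) and of Rpgr, a gene of the photoreceptor cilium, at chrX:10216404-10216703 (minus strand) had a wild-type peak only. The starts of the beta cell factors Pdx1 at chr5:147269847-147270146 (plus strand) and Isl1 at chr13:116309639-116309938 (minus strand) had a peak in both libraries and are shown for comparison.
Bcl2l14: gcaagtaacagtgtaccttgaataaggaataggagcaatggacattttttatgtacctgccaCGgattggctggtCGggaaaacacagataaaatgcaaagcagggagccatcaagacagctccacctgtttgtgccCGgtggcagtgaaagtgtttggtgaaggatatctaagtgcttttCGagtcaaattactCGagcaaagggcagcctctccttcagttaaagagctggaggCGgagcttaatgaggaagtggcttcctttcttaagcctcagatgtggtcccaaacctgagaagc
Rnf186: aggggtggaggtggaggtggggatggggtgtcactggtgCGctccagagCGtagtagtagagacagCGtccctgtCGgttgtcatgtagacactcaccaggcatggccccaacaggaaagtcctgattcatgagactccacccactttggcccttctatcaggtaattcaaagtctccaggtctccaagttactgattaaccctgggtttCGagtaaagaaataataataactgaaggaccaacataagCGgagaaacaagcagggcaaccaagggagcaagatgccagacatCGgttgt
Dennd2a: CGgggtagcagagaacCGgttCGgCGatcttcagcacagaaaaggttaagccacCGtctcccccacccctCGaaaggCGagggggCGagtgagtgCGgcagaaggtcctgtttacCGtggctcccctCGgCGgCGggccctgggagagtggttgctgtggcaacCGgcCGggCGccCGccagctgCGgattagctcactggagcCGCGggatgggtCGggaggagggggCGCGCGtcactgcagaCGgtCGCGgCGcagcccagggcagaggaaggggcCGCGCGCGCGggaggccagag
Rpgr: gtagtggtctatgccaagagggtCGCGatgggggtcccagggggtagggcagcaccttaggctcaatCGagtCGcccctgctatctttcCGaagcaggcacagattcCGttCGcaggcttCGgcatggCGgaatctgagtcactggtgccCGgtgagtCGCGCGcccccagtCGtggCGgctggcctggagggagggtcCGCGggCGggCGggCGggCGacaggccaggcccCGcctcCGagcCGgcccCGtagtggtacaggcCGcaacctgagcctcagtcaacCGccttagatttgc
Pdx1: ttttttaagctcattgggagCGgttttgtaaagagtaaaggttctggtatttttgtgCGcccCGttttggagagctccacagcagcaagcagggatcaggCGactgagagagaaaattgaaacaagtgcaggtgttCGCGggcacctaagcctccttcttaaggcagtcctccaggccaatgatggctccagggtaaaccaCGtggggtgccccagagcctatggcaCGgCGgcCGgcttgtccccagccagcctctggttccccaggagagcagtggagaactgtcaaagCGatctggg
Isl1: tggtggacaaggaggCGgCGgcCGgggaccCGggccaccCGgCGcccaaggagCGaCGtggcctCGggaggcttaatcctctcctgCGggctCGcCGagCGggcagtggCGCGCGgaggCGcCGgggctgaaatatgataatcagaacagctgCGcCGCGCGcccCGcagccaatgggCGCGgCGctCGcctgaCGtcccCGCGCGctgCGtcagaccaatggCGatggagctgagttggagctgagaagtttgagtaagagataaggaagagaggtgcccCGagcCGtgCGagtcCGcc
The windows of Bcl2l14 and Rnf186 held 6 and 7 CpG, with observed over expected CpG ratios of 0.366 and 0.364. Those of Dennd2a and Rpgr held 33 and 27 CpG, with ratios of 0.907 and 0.792. Pdx1 stood between with 11 CpG and a ratio of 0.485, and Isl1 was the most CpG-rich of the 6 with 37 and 1.05. These 6 were picked after their values were seen, and the ratios over all starts are given further on.

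The wild-type list was the longer of the pair. It held 41490 peaks over 25.1 Mb, against 34298 peaks over 20.2 Mb in the homozygous list. The lowest local background, solved from the deposited values, was 2.17 reads per position for the wild-type and 1.73 for the homozygous library, a ratio of 1.25, whereas the median summit pile-up was 49 reads in the former and 54 in the latter. Read totals are not known here. Gained regions were 20.4% of the 33011 regions with a homozygous peak, and lost regions were 32.9% of the 40350 regions with a wild-type peak. With both lists held to a −log10 p of at least 10, there were 10539 lost and 5990 gained regions. With the wild-type peaks also thinned to the homozygous background, there were 7673 lost and 7059 gained regions. The part of depth in single regions was not tested. The 1 kb line cut through few regions: 329 wild-type-only regions lay in the last 500 bp inside the line and 162 in the first 500 bp outside it, and for homozygous-only regions these counts were 267 and 143. Of the lost regions, 76.7% had no homozygous peak within 10 kb, and of the gained regions 66.5% had no wild-type peak within 10 kb.

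Gained and lost regions lay far from transcription starts, and in this they were alike. Of the shared regions, 54.5% (Wilson 95% interval 53.9 to 55.1%) lay within 1 kb of a start, at a median distance of 275 bp. Only 5.51% (4.99 to 6.08%) of the gained and 9.03% (8.56 to 9.53%) of the lost regions did so, and their median distances were 31593 and 32192 bp. Most of both sets, 54.9% of the gained and 53.4% of the lost regions, lay 10 to 100 kb from a start, the range typical of distal enhancers. A further 21.9% and 22.3% lay over 100 kb away. These intervals, like all below, cover counting error only. They treat regions as independent, although peaks parted by a short gap count as separate regions.

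**Figure D1:**
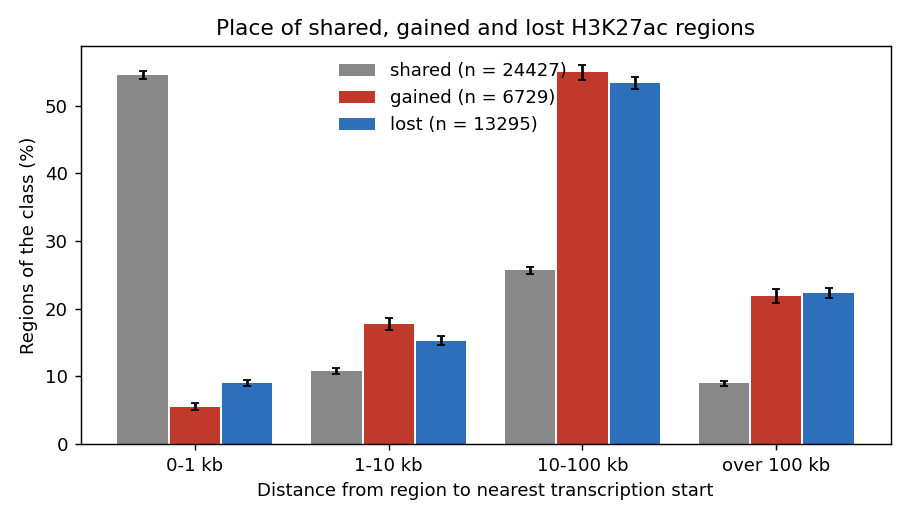
Share of shared, gained and lost regions (y axis, percent of the class) in 4 classes of distance to the nearest transcription start (x axis); error bars are Wilson 95% intervals. Shared regions are concentrated within 1 kb of a start (54.5%), whereas 54.9% of gained and 53.4% of lost regions lie at 10 to 100 kb.

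Seen from the side of the libraries, the share of wild-type regions that were lost was 7.82% within 1 kb of a start, 39.6% at 1 to 10 kb, 49.7% at 10 to 100 kb and 53.1% beyond. The share of homozygous regions that were gained was 2.62%, 28.3%, 34.6% and 37% over the same classes. Start regions were thus the class in which the 2 clones differed least, in both directions. A region that covered a listed start, or an end of a gene without one, was rare among gained (1.43%) and lost (2.96%) regions. Such regions were common among shared ones (27.1%).

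One-sided regions were also narrow and weak within their lists. The median gained region was 338 bp wide with 26 reads at its summit, and the median lost region 380 bp with 27 reads. Shared regions had a median width of 729 bp, with 70 reads in the homozygous and 72 in the wild-type library. A shared region joins peaks of both libraries and takes the highest reads and −log10 q among its peaks of each library. Part of its greater width and strength is thus built in. The median single peak was 489 bp wide with 54 reads in the homozygous list, and 509 bp with 49 reads in the wild-type list. From the weakest to the strongest quartile of the list by −log10 q, the lost share of wild-type regions fell from 61.6% through 44.8% and 21.7% to 3.64%. The gained share of homozygous regions went from 45% through 27.2% and 8.51% to 0.909%. Distal regions were one-sided more often than start regions at every strength. In the weakest quartile 65.3% of wild-type regions over 1 kb from a start were lost, against 35.1% within 1 kb, and in the strongest quartile the shares were 13.3% and 0.575%. For gained regions the corresponding shares were 50.3% against 14.8% in the weakest and 3.7% against 0.109% in the strongest quartile.

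**Figure D2:**
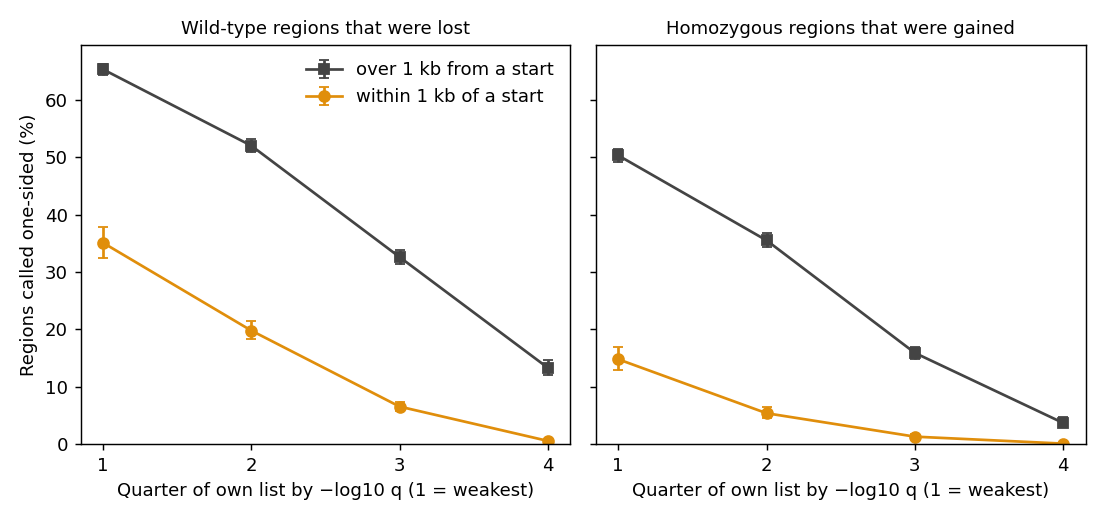
Share of regions called lost (left) or gained (right) on the y axis, in percent, by quartile of the list on the x axis, from 1 (weakest −log10 q) to 4 (strongest); squares are regions over 1 kb from a start, circles regions within 1 kb, and error bars are Wilson 95% intervals. At every quartile the distal regions sit above the start regions, for lost regions from 65.3% against 35.1% down to 13.3% against 0.575%.

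Few genes differed at their start. Among the 9451 genes with a wild-type peak within 1 kb of a listed start, 711 (7.52%) had no homozygous peak there, and among the 8947 with a homozygous peak, 207 (2.31%) had no wild-type peak there. The 10 start regions with the highest −log10 q on each side are described next, with the fold enrichment and summit reads of the peak in the list that holds it. For genes without a listed start, an end of the gene stands in for the start. Fold enrichment is the authors' value within a library and is not compared between libraries.

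Among the gained start regions, the highest −log10 q, 91.5, belonged to Pla2g5, a secreted phospholipase A2 gene (chr4:138864156-138865167, fold 8.63, 163 reads), but its region lay 687 bp from the start and a wild-type peak lay 4.3 kb away. The regions at Bcl2l14 (chr6:134413881-134414973, fold 12.2, 117 reads) and Rnf186 (chr4:138967073-138968058, fold 6.95, 171 reads) covered the starts whose sequences are printed above. Tc2n, which encodes a protein with paired C2 domains, had the highest fold of the 10, 14.5 with 93 reads (chr12:101717869-101718797), and the nearest wild-type peak was 133 kb away. Signalling ligands among the 10, both with the region at an end of the gene, were Il7, the cytokine interleukin 7 (chr3:7611883-7613764, fold 4.21, 173 reads), and Pdgfb, the PDGF B chain (chr15:80024131-80025072, fold 11.3, 66 reads). Etv4, an ETS factor of the PEA3 group that responds to ERK signalling, had its region at an end of the gene (chr11:101784533-101785303, fold 12.3, 73 reads). The other 3 were the phospholipase D gene Pld1 (fold 6.59, 114 reads), the mitochondrial ornithine aminotransferase gene Oat (fold 11.7, 65 reads) and the TRAIL decoy receptor gene Tnfrsf22 (fold 11.7, 64 reads, at an end of the gene).
Seen in the heterozygous library, the 10 split evenly. It had a peak within 1 kb at Rnf186, Tc2n, Etv4, Oat and Pdgfb, with folds of 6.52, 6.22, 12.9, 13.2 and 4.82, and none at Pla2g5, Bcl2l14, Pld1, Il7 and Tnfrsf22.

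Of the 10 lost start regions, 9 are described. Rpgr, on the X chromosome, had a region over its start (chrX:10216003-10216787, fold 11.5, 120 reads), and no homozygous peak lay within 268 kb. Dnah7a, an axonemal dynein heavy chain gene, lost the region over its start (chr1:53706532-53707347, fold 12.4, 108 reads). Because mouse has closely similar Dnah7 copies and the aligner is not named in the sources used here, its reads may be shared with them. Dennd2a (chr6:39557269-39558569, fold 8.95, 145 reads) and Iqsec1, an exchange factor for ARF6 (chr6:90808816-90810110, fold 8.77, 146 reads), act in membrane traffic. Phactr1, a regulator of protein phosphatase 1 and actin, lost the region over one of its 3 listed starts (fold 8.47, 129 reads) but had 10 homozygous regions elsewhere. Higd1a, a mitochondrial gene induced by hypoxia, had 4 wild-type and 0 homozygous regions, with fold 9 and 110 reads at the start. The remaining 3 were Fbxo47, an F-box gene (fold 6.59, 163 reads, at an end of the gene), Matk, a kinase that inhibits SRC family kinases (fold 9.77, 99 reads), and As3mt, the arsenite methyltransferase gene (fold 11, 90 reads).
In the heterozygous library 6 of these 9 had a peak within 1 kb, with folds from 5.01 at Matk to 11.5 at Higd1a, and Rpgr, Dnah7a and As3mt had none.

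The starts that differed were poorer in CpG than those acetylated in both clones. Over the 21262 listed starts, the median observed over expected CpG ratio was 0.802 for the 10383 starts with a peak in both libraries. It was 0.61 for the 896 starts with a wild-type peak only, 0.519 for the 256 with a homozygous peak only and 0.223 for the 9727 with neither. A ratio of at least 0.6, a usual line for CpG islands, was reached by 80.2%, 51.3%, 39.1% and 12.8% of these starts. Median GC content followed the same order, at 62%, 60.3%, 58.7% and 49%.

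**Figure D3:**
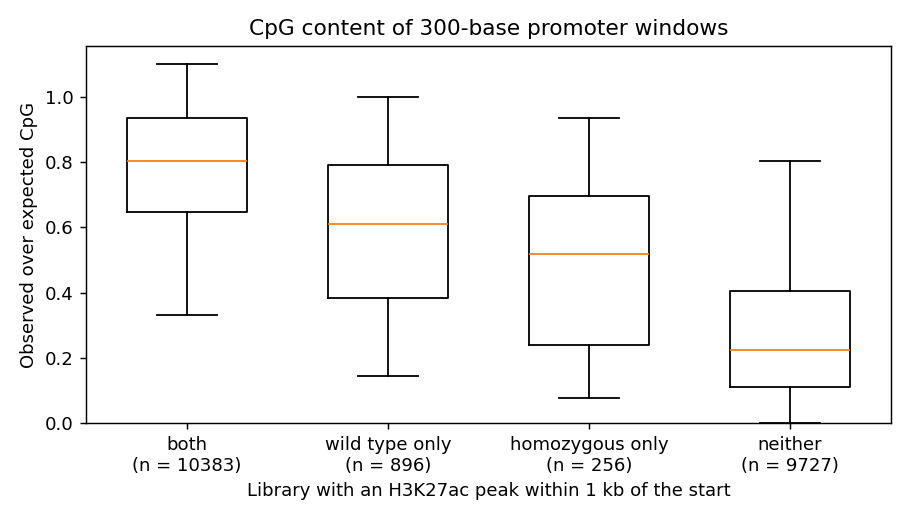
Observed over expected CpG in the 300-base windows (y axis, no unit) of starts grouped by the library with a peak within 1 kb (x axis); boxes span the quartiles, the line is the median and whiskers reach the 5th and 95th percentiles. The medians step down from 0.802 (both) through 0.61 and 0.519 to 0.223 (neither).

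Short motifs were counted in these windows on both strands, as a description of letters and not of binding. TGANTCA, the core recognised by AP-1, was present in 14.8% (11 to 19.7%) of the homozygous-only windows, in 5.92% (4.55 to 7.66%) of the wild-type-only windows and in 3.73% of those with both, beside 6.99% of all windows and 10.4% of those with neither. The Rnf186 window printed above holds this motif among the gained and the Rpgr window among the lost starts. CCGGAAG, an ETS core, was in 20.5% of the windows with both but in only 5.13% and 5.47% of the wild-type-only and homozygous-only windows, with 11.6% over all. TGACGTCA, the full CRE, was in 1.67% of wild-type-only and 0.391% of homozygous-only windows, the latter a single start, against 3.63% with both and 2.23% of all windows. The GC box GGGCGG was in 58.1% and 51.6% of the one-sided windows and 46.2% of all. TATAAA was in 8.71% and 11.3%, and 12.6% of all. The E-box CANNTG was in 68.5% and 73.8%, and 69% of all. CCAAT was in 31.9% and 36.7%, and 38.2% of all. TGTTTAC, a forkhead core, was in 3.01% and 1.95%, and 3.01% of all. No motif searched matches inside another of them.

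One-sided regions often lay in runs. A run was taken as consecutive regions of 1 class, with no other region between them and gaps of at most 50 kb. Neighbouring peaks that did not touch were counted singly. Run sizes, and the counts per gene below, are therefore not numbers of distinct sites. Runs of 3 or more held 39.2% of the lost regions, in 1299 runs, and 24.3% of the gained regions, in 456 runs. With both lists cut to equal length there were 680 such lost runs and 661 gained ones. The part of list length in the excess of lost runs was not tested.
The longest run of gained regions lay at chr2:62405194-62514244 and held 10 regions over 109 kb near Dpp4, Fap and Gcg. Dpp4 encodes the peptidase that inactivates GLP-1, Fap a related peptidase, and Gcg the hormone glucagon. The wild-type library had no peak in the span, the heterozygous library had 1, and the 10 homozygous peaks had folds of 4.31 to 7.57 and 16 to 47 summit reads. One of them lay 32 bp from the Gcg start (fold 4.34, 22 reads), at the weak end of the list. The other long gained runs were 9 regions near 1110002E22Rik, Dapp1 and Lamtor3 (chr3:137951935-138054652), 9 near Lrrc4 (chr6:28760061-28820636), 9 near F2rl2 and Iqgap2 (chr13:95777100-95826246) and 8 near Degs2 (chr12:108668574-108702941). The heterozygous library had 3, 0, 2 and 0 peaks in those 4 spans.

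The longest run of lost regions covered part of Frmd4b, a gene for a FERM-domain scaffold protein of epithelial junctions, and reached beyond the gene. It held 17 wild-type regions over 213 kb (chr6:97487545-97700184), with folds of 2.71 to 6.44 and 18 to 149 reads. The homozygous library had no peak in the span, and the heterozygous library had 10. Galnt18, a glycosyltransferase gene, had a run of 15 over 137 kb (chr7:111643120-111779954), with 3 heterozygous peaks. A run of 14 near Lhx5 and Rbm19 (chr5:120202709-120354464) held 11 heterozygous peaks, a run of 14 near Mgat5b and Sec14l1 (chr11:116913323-117063723) held 2, and a run of 13 near Ttc39b (chr4:83166727-83285444) held 3.

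**Figure D4:**
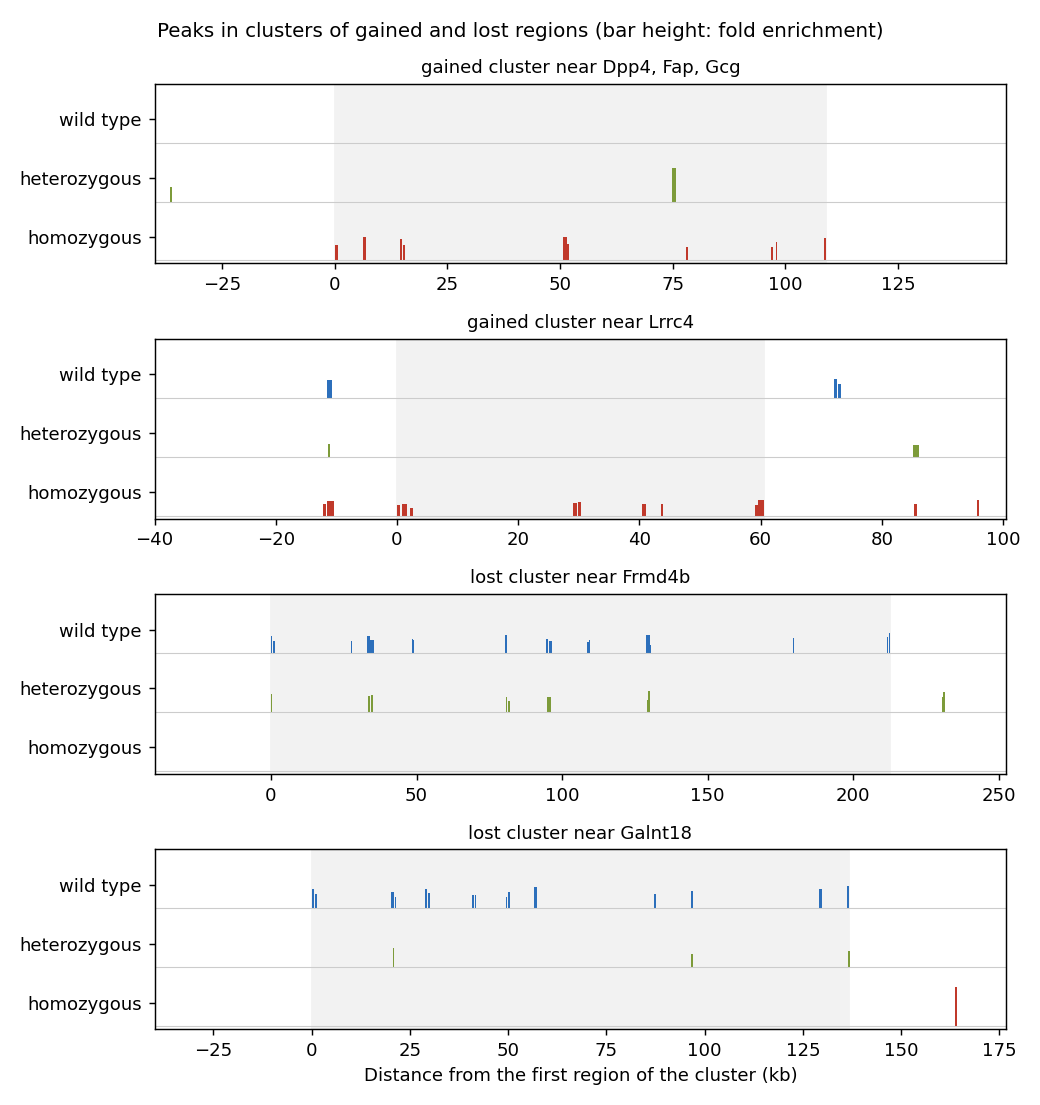
Peaks of the wild-type, heterozygous and homozygous libraries (rows) around 4 runs of one-sided regions, by distance from the first region of the run in kb (x axis); bars are peaks, their height is the fold enrichment within the library, and the shaded band is the run. Near Dpp4, Fap and Gcg 10 homozygous peaks face no wild-type peak, and near Frmd4b 17 wild-type peaks face no homozygous peak.

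Each region within 100 kb of a start was assigned to the nearest gene, which shows nearness and not regulation. Of the 14115 genes with any region, 2152 (15.2%) had more gained than lost regions and 4329 (30.7%) had more lost than gained.
Lrrc4, a synaptic adhesion gene, had the largest net gain, with 6 wild-type and 17 homozygous regions. Pappa2, a protease that frees insulin-like growth factors, had 2 and 12. Degs2, a sphingolipid hydroxylase gene, had 2 and 10, and Iqgap2, a GTPase-binding scaffold gene, had 6 and 15. Cdh1, which encodes E-cadherin, had 1 wild-type and 8 homozygous regions, 2 of the gained ones at an end of the gene. Il7 had 0 and 7, and Oxtr, the oxytocin receptor gene, had 6 and 13, with 3 gained regions at a start. Trappc9 (7 and 15), Ldlrad3 (3 and 11) and Mmd (1 and 9) completed the 10. The heterozygous library had 1 region at Cdh1, 0 at Il7, 6 at Oxtr and 2 at Pappa2, the wild-type numbers at these 4 genes. It had 2 at Degs2 and 5 at Iqgap2, and more than the wild type at Lrrc4 (8), Trappc9 (8), Ldlrad3 (5) and Mmd (3). The order depended on the reach of the assignment. With genes taken within 20 kb the net of gained minus lost regions was 7 at Cdh1, 5 at Degs2, Il7, Mmd and Oxtr, 4 at Pappa2, 3 at Iqgap2, 2 at Trappc9 and 1 at Lrrc4 and Ldlrad3.

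Frmd4b had the largest net loss, with 18 wild-type regions and 1 homozygous region. Foxp1, a forkhead repressor gene, had 17 and 1. Eps8, which encodes a substrate of the EGF receptor that links it to actin and RAC, had 12 wild-type and 0 homozygous regions. Elmo1, a partner of the DOCK exchange factors for RAC, had 15 and 3. Mapk4, an atypical MAP kinase gene, had 16 and 1. Kcnj6, which encodes the G protein-gated potassium channel GIRK2, had 17 and 4. Galnt18 (16 and 2), Gm30733 (15 and 1), Ttc39b (17 and 4) and Igsf21 (12 and 1) completed the 10. The heterozygous library had 11 regions at Frmd4b, 10 at Foxp1, 6 at Eps8, 8 at Elmo1, 13 at Mapk4 and 10 at Kcnj6, between the other 2 libraries in each case. It had 4 at Galnt18, 5 at Gm30733, 5 at Ttc39b and 3 at Igsf21. Within 20 kb the net of these 10 genes ran from -1 at Galnt18 to -5 at Foxp1, Elmo1 and Kcnj6, with -4 at Frmd4b. After thinning it ran from -2 at Elmo1 to -10 at Galnt18 and Mapk4, with -8 at Frmd4b.

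For gene groups, the backgrounds are the shares over all regions assigned to genes, 18.1% gained (5255 of 29026 homozygous regions) and 29.7% lost (10335 of 34771 wild-type regions). With lists of equal length they were 22.1% and 23.8%. Of the 22 gene lists, 17 had more lost than gained regions, but only 8 did with lists of equal length, so the share against its background is given rather than the direction alone.

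**Figure D5:**
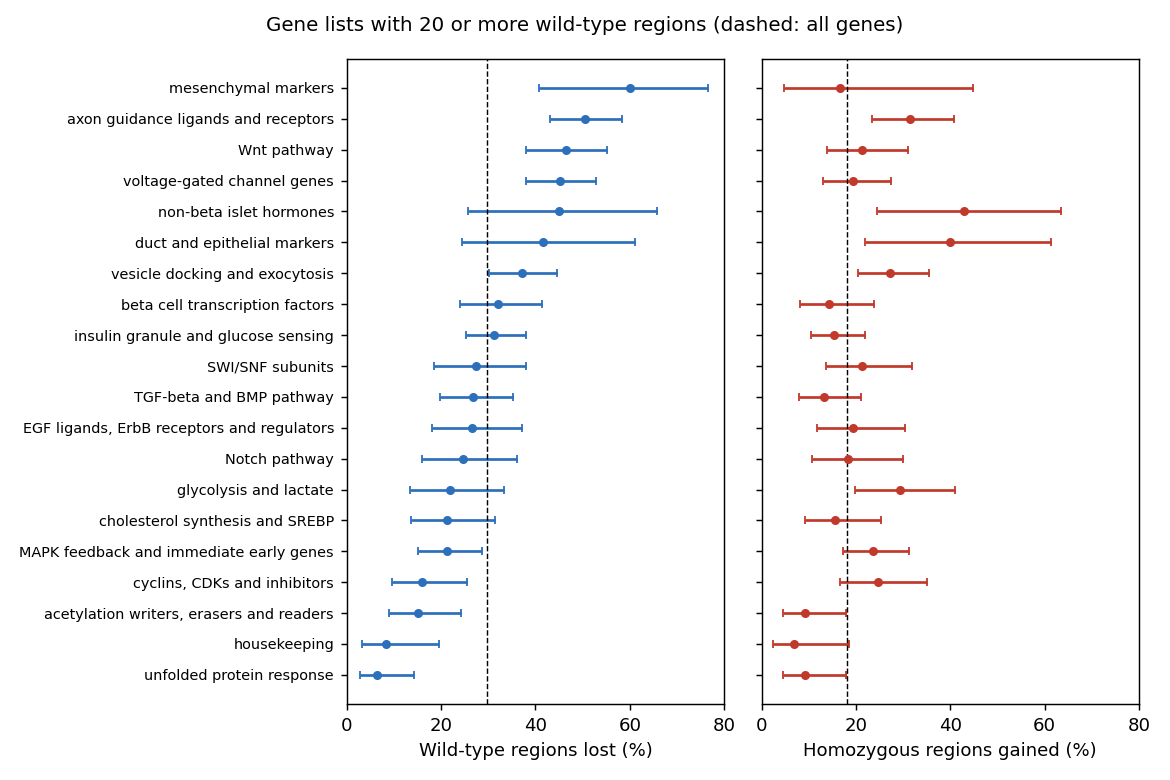
Share of wild-type regions lost (left) and of homozygous regions gained (right), in percent on the x axes, for each gene list with 20 or more wild-type regions (y axis); bars are Wilson 95% intervals and dashed lines the shares over all genes, 29.7% and 18.1%. Axon guidance (50.6% lost), Wnt (46.4%) and voltage-gated channel genes (45.3%) lie right of the line on the left, and the unfolded protein response (6.49%) lies left of it.

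The targeted gene itself kept its acetylation. Arid1a had 5 wild-type, 4 heterozygous and 6 homozygous regions, and a peak at its start in both libraries of the comparison. A guide-directed edit need not alter the acetylation of the locus, so this does not check the genotype. The SWI/SNF subunit genes as a list, Arid1a included, were near the background, with 21.3% gained and 27.3% lost, and the balance of 16 gained and 21 lost turned to 19 and 15 with lists of equal length and 15 and 13 after thinning. Arid1b, the paralog that takes the place of ARID1A in the complex, had 5 wild-type and 9 homozygous regions, with 8 in the heterozygous library. Dpf1 and Smarcd3, subunits of the neuronal and muscle forms, each gained 2 regions at a start and had 2 lost regions farther away, with Dpf1 at 4 and 5 and Smarcd3 at 3 and 3 regions.

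The beta cell identity of the clones showed in both libraries. Of the 16 beta cell transcription factor genes with a listed start, 13 had a start peak in both, 1 in wild type only and 2 in neither. Regions at Ins1 (4 in wild type and 4 in homozygous), Ins2 (2 and 3) and Neurod1 (2 and 2) were shared apart from 1 gained at Ins2. Over the list, 14.3% (8.17 to 23.8%) of homozygous regions were gained and 32.1% (24.1 to 41.4%) of wild-type regions lost, near the background over all distances. Over 1 kb from a start the list had 20% gained and 37.5% lost, below the 32.8% and 47% of all genes. Of its 23 members with regions, 13 had more lost and 3 more gained, beside 30.7% and 15.2% of all genes with regions. The list had 109 wild-type regions over these 23 genes, against 34771 over 14115 for all genes. The counts of genes are therefore not matched for the number of regions per gene. Isl1, which maintains islet endocrine cells, had 10 wild-type and 5 homozygous regions, and Insm1, a zinc finger factor of endocrine differentiation, had 14 and 8. Nkx6-1 had 7 and 5, Myt1 7 and 2, and Foxa1 3 and 1. Pdx1 had 2 and 4, and Gata4 had 0 and 3. The heterozygous library had 2 regions at Pdx1, 6 at Isl1 and 10 at Insm1.

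Genes of the insulin granule and glucose sensing had 15.3% gained and 31.3% lost, again near the background over all distances. Over 1 kb from a start they had 19.8% gained and 36.4% lost, below the 32.8% and 47% of all genes. Single genes differed widely. Prlr, the prolactin receptor, had 7 wild-type and 0 homozygous regions, and Scgn, the calcium sensor secretagogin, had 5 and 0. Both lost their start peak, and neither had a heterozygous region. Gjd2, which encodes connexin 36 of the gap junctions that couple beta cells, had 10 and 2. Slc30a8, the zinc transporter of the granule, had 14 and 6. Pcsk2, a proinsulin convertase gene, had 7 and 3. On the other side, Abcc8, the SUR1 subunit of the ATP-sensitive potassium channel, had 10 wild-type and 14 homozygous regions. Cpe, which trims the processed hormone, had 8 and 12. Slc2a2, the GLUT2 transporter, had 5 and 7, and Ucn3 had 1 and 4. The granins, which help form granules, were mixed, with Chga at 13 and 8 and Scg2 at 6 and 10.

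Vesicle docking and exocytosis genes had 27.3% (20.4 to 35.4%) gained and 37.1% (30.2 to 44.5%) lost. Over 1 kb from a start they had 35.9% gained and 45.4% lost, close to the 32.8% and 47% of all genes. Of the 26 members with a wild-type peak at a listed start, 5 had no homozygous peak there, beside 7.52% over all genes. Syt9, a calcium sensor of secretion, had 6 wild-type and 0 homozygous regions, and Stxbp5l, the tomosyn-2 gene that restrains SNARE assembly, had 5 and 0. Doc2b, another calcium sensor, had 4 and 0. Paralogs of the vesicle protein SV2 went opposite ways, with Sv2b at 8 and 2 and Sv2c at 3 and 8, and Sv2c gained 2 regions near its start (147 reads at the higher). Exoc6, an exocyst gene, had 1 and 5.

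The voltage-gated channel list had 45.3% (38.1 to 52.8%) of wild-type regions lost, beside 29.7% over all genes, and 19.3% of homozygous regions gained. With lists of equal length the lost share was 41.5%, beside 23.8%. Over 1 kb from a start the gap was smaller, at 52.2% lost beside 47% for all genes, and 22.6% gained beside 32.8%. Of its 48 members with regions, 26 had more lost and 8 more gained, beside 30.7% and 15.2% of all genes. These counts of genes are likewise not matched for regions per gene, with 172 wild-type regions over the 48 members. Cacna1h and Cacna1g, both T-type calcium channels, had 8 and 0 and 8 and 2 regions. Cacna1c, the main L-type channel of the beta cell, had 15 and 11. Cacnb2, an auxiliary calcium channel subunit, went the other way at 1 and 5, with 8 in the heterozygous library.
Potassium channel genes, taken by symbol, had 55.7% (48.8 to 62.3%) lost and 31% gained, or 58.4% and 34% over 1 kb from a start, and 12 of the 24 with a wild-type start peak had no homozygous one, beside 7.52% over all genes. Receptors named Gpr or Adgr had 50.7% lost and 21.2% gained, or 63.9% and 30.6% over 1 kb from a start. These gene families were defined by symbol, and some of their members also stand in the lists.

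Axon guidance ligands and receptors, some of which act in contacts between beta cells, had 50.6% (43 to 58.3%) of wild-type regions lost and 31.5% (23.5 to 40.7%) of homozygous regions gained. Over 1 kb from a start, 63.8% were lost and 49.2% gained, beside 47% and 32.8% for all genes. With lists of equal length they were 40.9% lost and 34.3% gained. At listed starts, 10 of 34 genes with a wild-type peak had no homozygous one, beside 7.52% over all genes. Nrp2, a co-receptor for class 3 semaphorins and VEGF, had 12 wild-type regions and 1 homozygous region, which did not overlap any of the 12, and no heterozygous region. Its paralog Nrp1 had 4 and 0. Efnb1, an ephrin ligand, and Ephb3, one of its receptors, each had 6 and 0, with 5 and 3 in the heterozygous library. Dpysl3, which carries semaphorin signals to the cytoskeleton, had 6 and 0. Gains were found at Unc5d, a netrin receptor (0 and 4), and at the semaphorins Sema4b (5 and 9), Sema4d (3 and 6) and Sema6a (5 and 9). Other class 4 and 6 semaphorins went the other way, with Sema4g at 1 and 0, Sema6b at 3 and 0, Sema6c at 2 and 0 and Sema6d at 4 and 2.

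In the Wnt pathway 46.4% (37.9 to 55.1%) of wild-type regions were lost and 21.2% (13.8 to 31%) of homozygous regions gained, and with lists of equal length the shares were 40% and 30.6%. Over 1 kb from a start they were 54.6% and 27.6%, beside 47% and 32.8% for all genes. Lrp5, a Wnt co-receptor, had 8 wild-type and 0 homozygous regions, and Dkk2, a secreted modulator of that receptor, had 5 and 0. Ror1, a receptor of non-canonical Wnt ligands, had 8 and 2, and Tcf7l2, the nuclear effector linked to type 2 diabetes, had 2 and 0. Its partner Ctnnb1, beta-catenin, had 9 and 4. Gains were at the ligand Wnt5a (0 and 4) and the receptor Fzd5 (3 and 6). The Wnt5a region nearest an end of the gene was weak, with fold 3.38 and 19 reads. Heterozygous regions numbered 6 at Lrp5, 4 at Dkk2, 0 at Wnt5a and 0 at Tcf7l2.

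The EGF list, of ligands, ErbB receptors and their regulators, was near the background with 19.4% gained and 26.6% lost. Its balance of 13 gained and 21 lost turned to 14 and 12 with lists of equal length and 13 and 11 after thinning. Among ligands, Tgfa had 4 wild-type regions and 1 homozygous region, and Hbegf had 6 and 4. Btc, betacellulin, had 4 and 1 and lost its start peak, which had few reads (fold 5.99, 18 reads). Nrg3 had 0 and 1, the 1 being at its start. Among receptors Erbb3 had 3 and 1. Among regulators, Lrig1, which promotes degradation of ErbB receptors, had 6 and 1, whereas its paralog Lrig2 had 2 and 4. Shc3, an adaptor between receptors and RAS, had the clearest gain of the list, with 0 wild-type and 6 homozygous regions, 2 of them at an end of the gene (folds 8.9 and 9.87), and the heterozygous library had 7. Ptpn11, the phosphatase SHP2, had 9 and 4.
Downstream, MAPK feedback and immediate early genes were 1 of 4 lists with more gained than lost regions, 33 and 29, at 23.6% (17.3 to 31.2%) gained and 21.2% (15.2 to 28.7%) lost. Fos, an AP-1 subunit, had 8 and 12, Fosl2 4 and 6, Spry4, a feedback inhibitor of RAS signalling, 0 and 3, and Etv4 2 and 4. Jun had 8 and 6, Egr2 7 and 2, and Dusp2, a MAPK phosphatase, lost its start region (fold 5.99, 18 reads).

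The TGF-beta and BMP list had 13.2% gained and 26.8% lost, turning from 14 gained and 33 lost to 19 and 16 with lists of equal length and 15 and 13 after thinning. Smad7, the inhibitory SMAD, had 4 and 10 regions, and Tgfbr1, the type I receptor, had 6 and 2. In the Notch list, with 18.3% gained and 24.6% lost, Maml2, a co-activator, had 4 and 0, and the receptor Notch1 had 3 and 6.

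Groups with housekeeping roles were mostly shared. Housekeeping genes had 6.98% gained and 8.33% lost, and Actb and Gapdh each had 3 regions in both libraries, all shared. The balance of 3 gained and 4 lost turned to 4 and 1 with lists of equal length, 3 and 1 after thinning and 3 and 0 with genes taken within 20 kb. Unfolded protein response genes, on which the insulin-secreting cell depends, had 9.21% (4.53 to 17.8%) gained and 6.49% (2.81 to 14.3%) lost. Ern1, the IRE1 sensor, had 6 and 8. Acetylation writers, erasers and readers had 9.21% gained and 15.1% lost, with Hdac7 at 4 and 7 and Hdac9 at 4 and 1. Replication-dependent histone genes had 0 of 93 homozygous regions gained and 2 of 101 wild-type regions lost. Proteasome subunit genes had 0 of 56 gained and 15 of 75 lost, the 15 all over 1 kb from a start. At that distance 51.7% of their 29 wild-type regions were lost, beside 47% for all genes. Ribosomal protein genes had 5.03% gained and 10.4% lost.

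Cell cycle and metabolic gene lists varied. Cyclins, CDKs and inhibitors had 24.7% (16.6 to 35.1%) gained and 16% (9.63 to 25.5%) lost, but the balance of 20 gained and 13 lost turned to 6 and 11 when genes were taken within 20 kb. Ccnd1, cyclin D1, had 0 wild-type, 0 heterozygous and 2 homozygous regions, both at an end of the gene (folds 6.61 and 5.36). Ccnd2, the cyclin D of beta cell growth, had 6 and 8, and Cdk1 had 4 and 7. Cdkn1c, the inhibitor p57, lost its 1 region, which lay near an end of the gene and had few reads (fold 5.67, 17 reads). Glycolysis and lactate genes had 29.4% (19.9 to 41.1%) gained and 21.9% (13.5 to 33.4%) lost, all 20 gained regions over 1 kb from a start. Hk1 and Slc16a1, which mature beta cells keep silent, held 12 of the 20. Hk1, the high-affinity hexokinase, had 2 wild-type and 8 homozygous regions, and Slc16a1, which encodes the lactate and pyruvate transporter MCT1, had 10 and 13, both with a shared start peak. Aldoc and Slc16a3 lost their start peaks. With lists of equal length the glycolysis list had 23.3% lost, near the 23.8% of all genes. In the cholesterol list, with 15.6% gained and 21.2% (13.7 to 31.4%) lost, and 50% lost over 1 kb from a start, Insig1, which holds SREBP in the endoplasmic reticulum, had 4 and 6, and Fasn, fatty acid synthase, had 4 and 2. The balance of 12 gained and 17 lost turned to 15 and 13 with lists of equal length, 14 and 10 after thinning, and 8 and 7 within 20 kb.

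Markers of other pancreatic cell types had few regions, with high one-sided shares in small numbers. Non-beta islet hormone genes had 9 of 21 homozygous regions gained and 9 of 20 wild-type regions lost, and of the 12 with a listed start, 8 had no start peak in either library. All 9 gains lay at Gcg (0 and 3) and the neuropeptide gene Gal (2 and 9). Of the 11 members with regions, 6 had more lost than gained, beside 30.7% of all genes with regions. The balance of 9 gained and 9 lost turned to 14 and 8 with lists of equal length. It was 13 and 7 after thinning and 2 and 5 within 20 kb. Irx1, an alpha cell factor, had 4 and 0. Duct and epithelial markers had 8 of 20 gained and 10 of 24 lost, which turned to 13 and 5 with lists of equal length and 9 and 5 after thinning. Of the 8 gains 7 lay at Cdh1, and the tight junction gene Cldn4 had 7 wild-type regions and 1 homozygous region. Mesenchymal markers had 2 of 12 gained and 15 of 25 lost. These counts came to 4 and 8 with lists of equal length, 4 and 6 after thinning and 0 and 4 within 20 kb. Of the 9 mesenchymal members with regions, 7 had more lost and 0 more gained, beside 30.7% and 15.2% of all genes. Twist2 had 4 and 0, and the transcription factor genes Snai1 and Twist1 each lost their 1 region, which lay at the start. Both of these start regions had few reads, 16 at Snai1 (fold 5.36) and 17 at Twist1 (fold 5.67), beside a median of 27 over all lost regions. Acinar markers had 3 of 8 gained and 4 of 9 lost, or 3 and 2 with lists of equal length, and 11 of the 12 with a listed start had no start peak in either library. Immune and endothelial markers had 0 of 5 gained and 7 of 14 lost, and none of the 8 with a listed start had a start peak. The part of other cell types in the gained and lost regions was not tested.

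MicroRNA hairpins were set against the peaks in the same way. Of 1005 hairpins, 129 had a peak of both libraries within 1 kb, 23 a wild-type peak only and 14 a homozygous peak only. Mature forms of 4 are shown, chosen after their values were seen. They come from RefSeq on GRCm38.p6 and are printed with the seed, bases 2 to 8, in capitals, the part that pairs with targets.
miR-9-5p: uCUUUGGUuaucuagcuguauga
miR-137-3p: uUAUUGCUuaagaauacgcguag
miR-203-3p: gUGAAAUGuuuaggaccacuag
miR-146a-5p: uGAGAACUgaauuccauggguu
The hairpins of miR-9 (Mir9-1) and miR-137 (Mir137) touched or overlapped wild-type peaks, and the nearest homozygous peaks were 37 and 3.16 kb away. For miR-203 (Mir203) the nearest wild-type peak was 65 bp and the nearest homozygous peak 164 kb away. For miR-146a (Mir146) the homozygous peak was 266 bp and the wild-type peak 51.5 kb away. None of the 4 shares its seed with another. A hairpin is not the start of its primary transcript, which is not known here.

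Gains and losses were spread over the genome. On the autosomes and the X chromosome the gained share ran from 14.5% on chromosome 11 to 26.7% on chromosome 12, and the lost share from 27.6% on chromosome 17 to 37.7% on chromosome 12. Lost regions outnumbered gained ones on each of these chromosomes, from 1.44 times on chromosome 14 to 2.93 times on chromosome 2. With lists of equal length the totals were 8866 lost and 8203 gained regions, and chromosomes were not counted in that setting. The part of list length in the excess per chromosome was not tested. The Y chromosome had 4 gained and 3 lost regions.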

How the data were processed

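H3K27ac ChIP-seq of MIN6 clones was sequenced as single 75 bp reads, per the labels. Demultiplexing with bcl2fastq, peak calling with MACS2 and the build mm10 come from the submitters' processing notes. The sources used here name no tool version, aligner, control, threshold or read total. The authors' deposited narrowPeak lists give for each peak a score, a fold enrichment (a ratio to the local background), −log10 p and −log10 q. These values were used only to describe or rank peaks within a list. From the deposited fold and −log10 p, a whole summit pile-up and a background were solved by a Poisson tail to within 0.001 for 41489 of 41490 wild-type and 34297 of 34298 homozygous peaks. The lowest background served as relative depth, an assumption not checked here.

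Peaks of both lists were merged where they touched or overlapped, in Python (3.11.15), using pandas 2.3.3, scipy 1.17.1 and numpy 2.4.6. The counts of regions, gained and lost regions were the same in bedtools 2.31.1, and the scripts were tested on simulated data. Figures were drawn with matplotlib 3.10.9. Starts were 21262 RefSeq starts (GRCm38.p6) of 17491 protein-coding genes. For 4392 further genes without a listed start, chromosome 18 included, both gene ends stood in, which departs from the start-only plan. Regions were assigned to the nearest gene within 100 kb. With 1 library per genotype there was no test, and shares have Wilson 95% intervals, which leave out clone-to-clone differences and treat regions as independent. The heterozygous list was compared with the same wild-type clone, so only its own values are given beside the others.

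The members, 22 gene lists and 21 symbol families were chosen with earlier results of these data known. Genes named were, in each direction, the 10 with the highest −log10 q of a one-sided start region (predicted genes skipped), those at the 5 longest runs, the 10 with the largest net count, Arid1a, and list members with a net of 2 or more or a one-sided start region. Others were named after their values were seen: Ins1, Ins2, Neurod1, Actb, Gapdh, Nfatc2, the 6 promoters as a set and the microRNAs. Some genes that meet this rule are not reported here. All 697 list entries matched a symbol. Alternatives were other distances, stricter q, lists of equal length, other start classes and assignment distances, thinning of the wild-type list and other sets of starts.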

Additional observations from a re-analysis of the deposited data

How the results depend on the processing

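No paired analysis was possible because each genotype had 1 library, and for the same reason no replicate could be left out. Lost regions, 13295, came to 8800 with both lists at −log10 q of at least 10, and 7673 with the wild type thinned and both lists at −log10 p of at least 10. Thinning kept 31070 wild-type and 31029 homozygous peaks. With only one-sided peaks at or above the median of their list, 819 gained and 2613 lost regions were left, by the construction of that setting. Gained regions were 5091 at −log10 q of at least 10 and 7059 thinned. Over the settings not yet named gained regions ranged from 5615 to 8584 and lost regions from 8866 to 15923. Requiring 50% overlap could not alter the counts, since a peak that overlaps at all lies within 1 kb. The share of gained regions within 1 kb of a start, 5.51%, was 9.56% with no distance rule beyond overlap, 6.91% at −log10 q of at least 10, 6.13% with lists of equal length, 7.81% above the median, 6.76% thinned, 4.55% at 500 bp, 7.13% at 2 kb, 4.18% with listed starts only and 6.32% with either end of every gene. The share of lost regions, 9.03%, was 12.8%, 11.8%, 10.5%, 12.5%, 11.1%, 8.03%, 10.7% and 6.87% under the first 8 of these. Runs of 3 or more regions numbered 680 lost and 661 gained with lists of equal length, against 1299 and 456. Lists with more lost than gained regions, 17 of 22, numbered 8 with lists of equal length and 11 thinned. The thinning, −log10 p, listed-only and either-end settings were chosen after seeing the data. The gained minus lost balance changed sign with lists of equal length for EGF (2), SWI/SNF (4), TGF-beta (3), cholesterol (2), acinar (1), duct (8), housekeeping (3), solute carrier (19), mitochondrial ribosomal (6) and Rab genes (1). It changed sign thinned for EGF (2), SWI/SNF (2), TGF-beta (2), cholesterol (4), duct (4), housekeeping (2), solute carriers (16), OXPHOS subunits (3) and mitochondrial ribosomal genes (1). Within 20 kb it did so for cholesterol (1), cyclins (-5), housekeeping (3) and collagens (-7). Pla2g5 turned to 1 at 5 kb and 1 thinned. Of 51 genes named by rank or run, 28 had a net that moved by over 1.5 times with genes taken within 20 kb. The causes of these changes were not tested. Read totals are not known here, and the background ratio of 1.25 is the measure of relative depth used.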

Other observations

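Further gene families taken by symbol gave the following values, with the backgrounds of 18.1% gained and 29.7% lost. Forkhead factor genes had 13.4% gained and 42.6% lost (33.7 to 52%), and with lists of equal length 14.9% and 30.5%. Foxp1 alone held 15 of their 46 lost regions and 17 of their 108 wild-type regions. Collagen genes had the highest gained share among the families with 20 or more homozygous regions, 59% (43.4 to 72.9%), and 55.6% (39.6 to 70.5%) of their wild-type regions were lost, but the counts of 23 gained and 20 lost turned to 3 and 10 with genes taken within 20 kb. Zinc finger genes had 11.6% gained and 20.2% lost. Solute carrier genes had 23.6% (20.3 to 27.2%) gained and 30.9% (27.5 to 34.5%) lost, and their 135 gained and 203 lost regions turned to 150 and 131 with lists of equal length.

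Nfatc2, a calcineurin-dependent factor of beta cell proliferation, had 9 wild-type regions, all lost, and 0 regions in both the homozygous and the heterozygous library. It was named after its values were seen.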
